A study of Homo sapiens with 2 samples.

Results

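The miRNAs described here are the products of the miR-106b-25 and miR-106a-363 clusters, the paralogs of the oncogenic MIR17HG cluster, which runs from miR-17 to miR-92a. Members were chosen by name and not by a measured value, although earlier results of these data were known at the time. They were the 6 arms of the miR-106b-25 cluster (hsa-miR-106b-5p, hsa-miR-106b-3p, hsa-miR-93-5p, hsa-miR-93-3p, hsa-miR-25-3p and hsa-miR-25-5p) and 4 arms of the miR-106a-363 cluster (hsa-miR-106a-5p, hsa-miR-18b-5p, hsa-miR-20b-5p and hsa-miR-363-3p). Accordingly, 9 of the 10 listed names were found among the 2549 human miRNAs on the arrays, and no spot carried the name hsa-miR-106a-5p, which was therefore not analysed here.

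The MIR17HG cluster is a polycistron that was among the first miRNA loci to be called an oncogene, and its paralogs arose by duplication of the same gene order. Each hairpin is cut into a 5p and a 3p arm, of which one is usually kept as the guide strand and the other, the passenger strand, is mostly degraded. The guide recognises its targets mainly through the seed, bases 2 to 8 of the mature miRNA, so that miRNAs with one seed share many targets. The seed of miR-17, miR-20 and miR-106 is known to repress the cell cycle inhibitor CDKN1A and the transcription factor E2F1, and the seed of miR-25 and miR-92 the proapoptotic gene BCL2L11. The miR-106b-25 cluster lies in an intron of MCM7, a subunit of the replicative helicase, and is widely transcribed in proliferating cells together with its host, whereas the miR-106a-363 cluster lies on the X chromosome and is often low in adult tissues.

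In the RefSeq annotation of GRCh38.p14, the 3 hairpins of the miR-106b-25 cluster spanned chr7:100093560-100094074 on the minus strand, within the gene body of MCM7. The 6 hairpins of the miR-106a-363 cluster spanned chrX:134169378-134170278, also on the minus strand, within the noncoding host gene MIR106AHG. RefSeq held a mature sequence for all 10 listed members. The guide arms are shown 5′ to 3′ with the seed in capitals, because the seed sorts them into 3 families.
The first family has the seed AAAGUGC, and its members are set beside hsa-miR-17-5p and hsa-miR-20a-5p of the MIR17HG cluster:
hsa-miR-106b-5p: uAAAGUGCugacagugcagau
hsa-miR-93-5p: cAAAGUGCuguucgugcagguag
hsa-miR-106a-5p: aAAAGUGCuuacagugcagguag
hsa-miR-20b-5p: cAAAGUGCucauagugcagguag
hsa-miR-17-5p: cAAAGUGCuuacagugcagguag
hsa-miR-20a-5p: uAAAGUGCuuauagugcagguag
The second family has the seed AUUGCAC, with hsa-miR-92a-3p as the product of the MIR17HG cluster:
hsa-miR-25-3p: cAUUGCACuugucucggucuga
hsa-miR-363-3p: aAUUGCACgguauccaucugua
hsa-miR-92a-3p: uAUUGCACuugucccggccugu
The third family has the seed AAGGUGC and pairs hsa-miR-18b-5p with hsa-miR-18a-5p:
hsa-miR-18b-5p: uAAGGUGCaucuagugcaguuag
hsa-miR-18a-5p: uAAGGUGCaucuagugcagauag

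Some of these sequences differ by so few bases that a probe may capture a paralog, and the part of such cross-hybridisation in the values was not tested. Substitutions are given as the base of the MIR17HG product, the position counted from 1 at the 5′ end, and the base of the member. Between hsa-miR-18a-5p and hsa-miR-18b-5p there was only A20U, and between hsa-miR-17-5p and hsa-miR-106a-5p only C1A. hsa-miR-20b-5p differed from hsa-miR-20a-5p by U1C and U10C, and from hsa-miR-17-5p by U10C and C12U. hsa-miR-25-3p differed from hsa-miR-92a-3p by U1C, C14U, C18U and U22A. hsa-miR-93-5p was 3 single-base changes away from hsa-miR-17-5p, insertions and deletions included, and hsa-miR-106b-5p was 5 changes away from both hsa-miR-17-5p and hsa-miR-20a-5p. hsa-miR-363-3p was 9 changes away from its closest MIR17HG product, hsa-miR-92a-3p, although both have the same seed.

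The study asked how overexpression of the lncRNA HOTTIP in FaDu cells, a human hypopharyngeal squamous carcinoma line, alters the miRNAs of the exosomes that these cells release. Exosome RNA of cells given the negative control plasmid (oe-NC) and of cells given the HOTTIP overexpression plasmid (oe-HOTTIP) was labelled with Cy3, 200 ng per array, and each group was hybridised to 1 Agilent miRNA array. With 1 array per group there were no replicates, so the errors below are SDs over the spots of an array, which are technical, and no difference was tested. The labels name a lentivirus as the carrier of both plasmids, whereas the methods describe pcDNA plasmids delivered to FaDu cells with a lipid reagent, and whether the cells of each group were a pool or a clone was not given in the sources used here.

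The labels contradict each other on which array is which. Groups were taken here from the titles and treatments, whereas the free-text description of each sample names the other group. In the table of normalized values, all 388 miRNAs above the floor in the column of oe-NC were detected on the oe-HOTTIP-labelled array, and 127 of them were not detected on the oe-NC-labelled array. Across the 258 miRNAs with a difference in both sources, the difference between the columns ran opposite to that between the arrays (Spearman rho -0.97 across miRNAs, which are not replicates). HOTTIP itself is not read by a miRNA array, so its overexpression offers no check on the labels. The study drew its candidate targets of HOTTIP, hsa-miR-19a-3p and hsa-miR-19b-3p among them, from miRNAs it called lower with HOTTIP. Its methods name a 2-fold threshold and a corrected p-value for such calls. With the titles both were instead higher, at 0.61 and 0.35 on the log2 scale after the scaling given below. Their spreads over spots were 0.69 and 0.59, and neither reached 2-fold under either labelling, so this pair cannot settle the labels. Of the study's other candidates, only hsa-miR-18a-5p, hsa-miR-150-5p and hsa-miR-150-3p were detected on both arrays. With the titles these were higher too, at 0.19, 1.38 and 1.06, both hsa-miR-150 arms past 2-fold. On the oe-NC-labelled array hsa-miR-150-5p read 4.04, where the negative control spots averaged 3.87. Which labelling is right was not tested. Every direction below therefore refers to the oe-NC-labelled array and the oe-HOTTIP-labelled array, and all of them turn round if the descriptions are right.

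The array read each miRNA with 20 spots, shared among its probes, and the scanner software called a miRNA detected or not. The oe-NC-labelled array had 328 detected miRNAs (12.9%) and the oe-HOTTIP-labelled array had 390 (15.3%), with 261 (10.2%) detected on both. Intensities were background-subtracted and can be negative, and the negative control spots read 3.87 ± 2.37 (SD, 976 spots) on the oe-NC-labelled array and 3.45 ± 2.21 (SD, 975 spots) on the oe-HOTTIP-labelled array. Over the 261 miRNAs, the oe-HOTTIP-labelled array was brighter by 0.67 at the median (log2 scale). Differences were therefore taken after dividing all intensities of an array by the 90th percentile of these miRNAs on it, which was 279.9 for oe-NC and 439.4 for oe-HOTTIP. After this scaling the 261 differences had a median of 0.02 on the log2 scale, with quartiles of -0.66 and 0.73. The plot of spot intensities by member shows the values behind the members' results.

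**Figure D1:**
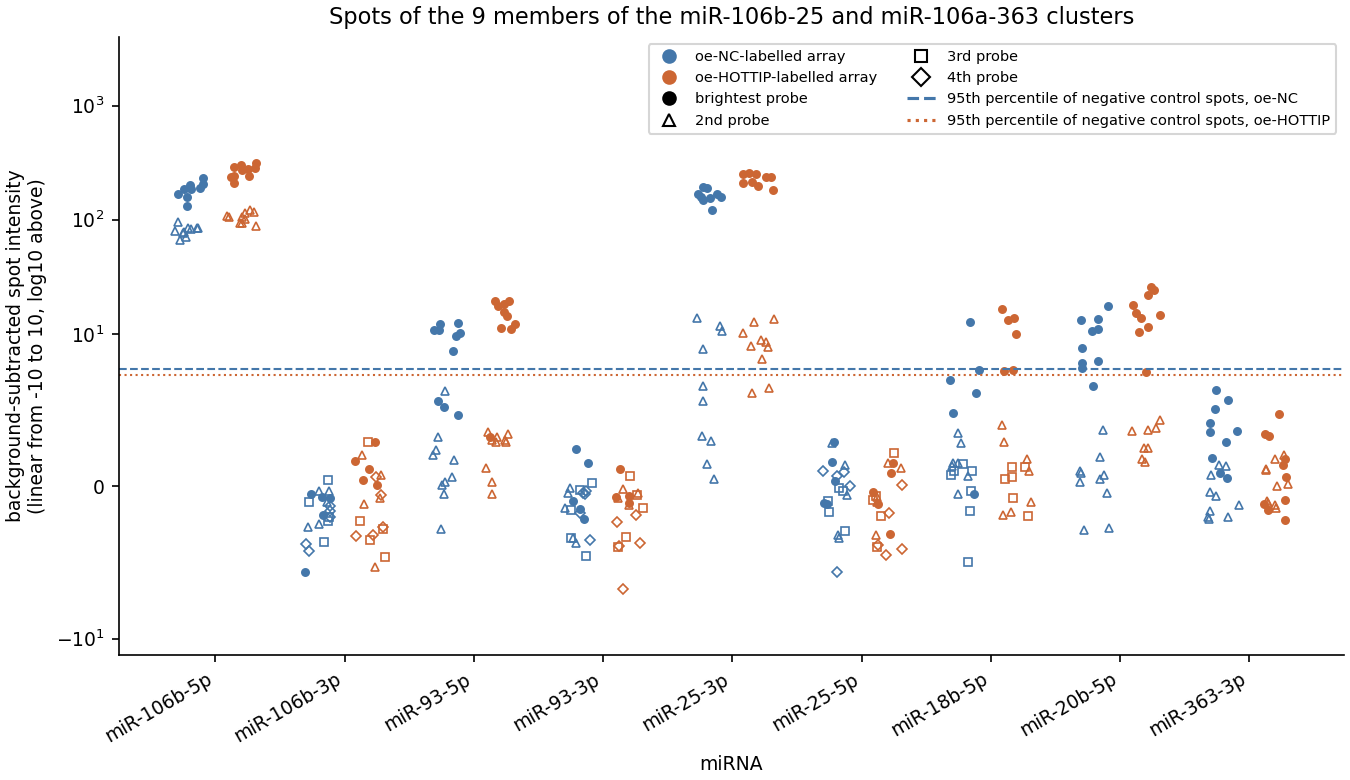
Background-subtracted intensity of every spot used for the 9 members (y axis, linear near 0 and log10 above) on the oe-NC-labelled array (blue) and the oe-HOTTIP-labelled array (orange). Filled circles are the brightest probe of a miRNA, open symbols its other probes, and the horizontal lines the 95th percentile of the negative control spots. hsa-miR-106b-5p and the brightest probe of hsa-miR-25-3p stand far above the lines on both arrays, the brightest probes of hsa-miR-93-5p, hsa-miR-20b-5p and hsa-miR-18b-5p lie near or above them, and hsa-miR-106b-3p, hsa-miR-93-3p, hsa-miR-25-5p and hsa-miR-363-3p lie below.

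Of the 9 members, 4 were detected on both arrays (hsa-miR-106b-5p, hsa-miR-93-5p, hsa-miR-25-3p and hsa-miR-20b-5p), 1 on the oe-HOTTIP-labelled array alone (hsa-miR-18b-5p) and 4 on neither. The 3 guide arms of the miR-106b-25 cluster were all detected on both arrays and its 3 passenger arms on neither. In the miR-106a-363 cluster, hsa-miR-20b-5p was detected on both arrays and hsa-miR-363-3p on neither. The 4 members detected on neither array had no value to call. After scaling, 0 of the 5 others were at least 2-fold higher on the oe-HOTTIP-labelled array, where 33.9% of the 457 miRNAs detected on at least 1 array were called. Likewise, 0 of the 5 were at least 2-fold lower, where 25.2% of the 457 miRNAs were called. Among the 261 miRNAs detected on both arrays, 39.1% differed by at least 2-fold in one direction or the other. The median log2 difference of the 4 members detected on both arrays was -0.07, with 2 above 0 and 2 below, beside the 0.02 of all miRNAs.

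hsa-miR-106b-5p, the guide of the first hairpin of the miR-106b-25 cluster and a known repressor of CDKN1A, read 132.6 ± 20.5 (SD, 19 spots) on the oe-NC-labelled array and 185.7 ± 24.2 (SD, 20 spots) on the oe-HOTTIP-labelled array. All of these spots were well above background. As deposited, its intensity was thus 0.49 higher on the log2 scale on the oe-HOTTIP-labelled array, less than the median shift between the arrays, and after scaling the difference was -0.16 with a spread over spots of 0.29 and a standard error of 0.066. Its brighter probe went from 185.0 to 266.6 and its dimmer probe from 80.1 to 104.8, or -0.12 and -0.26 on the log2 scale after scaling. For both probes the scaled spots of the arrays overlapped.

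hsa-miR-93-5p comes from the next hairpin of the same transcript and shares the seed of hsa-miR-106b-5p. It read 5.19 ± 2.66 (SD, 20 spots, 4 well above background) on the oe-NC-labelled array and 8.28 ± 3.70 (SD, 20 spots, 7 well above background) on the oe-HOTTIP-labelled array. Its scaled log2 difference was 0.02 with a spread over spots of 0.98 and a standard error of 0.22. The spread, nearly 2-fold, is that of single spots, and the standard error that of the mean over them. The signal came from 1 of its 2 probes, which read 9.04 and 14.3 on the oe-NC-labelled and oe-HOTTIP-labelled arrays (0.01 on the log2 scale after scaling). The other probe read 1.33 and 2.30, below the mean of the negative control spots on both arrays.

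hsa-miR-25-3p, the guide of the last hairpin of the miR-106b-25 cluster, belongs to the second seed family. It read 84.2 ± 15.0 (SD, 19 spots) on the oe-NC-labelled array and 117.8 ± 17.9 (SD, 19 spots) on the oe-HOTTIP-labelled array, with 11 spots well above background on each. The scaled log2 difference was -0.17, with a spread over spots of 0.34 and a standard error of 0.077. Its brighter probe read 161.9 ± 21.3 and 226.1 ± 25.9 (SD, 9 spots each), and the dimmer one 6.57 ± 4.61 and 9.47 ± 2.32 (SD, 10 spots each). The probes gave scaled differences of -0.17 and -0.12, and the spots of the arrays overlapped for both. The 3 guides made from the transcript of the miR-106b-25 cluster had scaled differences from -0.17 to 0.02, each smaller than the spread of single spots. For hsa-miR-106b-5p and hsa-miR-25-3p the difference was larger than the standard error over spots (0.066 and 0.077). That error is technical and leaves out variation between arrays.

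hsa-miR-20b-5p, the only member of the miR-106a-363 cluster detected on both arrays, carries the seed of the miR-17 family. It read 5.44 ± 2.79 (SD, 20 spots, 4 well above background) on the oe-NC-labelled array and 9.65 ± 4.64 (SD, 18 spots, 8 well above background) on the oe-HOTTIP-labelled array. The scaled log2 difference was 0.18, smaller than its standard error over spots of 0.23. Its brighter probe read 10.6 and 16.3, which was -0.03 after scaling, and its dimmer probe read 0.287 and 2.98, both below the mean of the negative control spots. With the brightest probe of every miRNA in place of the mean over probes, and the scaling taken anew, its difference was 0.08.

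hsa-miR-18b-5p, with the third seed, read 2.49 ± 2.81 (SD, 20 spots, 1 well above background) on the oe-NC-labelled array, where it was not detected. On the oe-HOTTIP-labelled array it was detected at 4.11 ± 2.60 (SD, 19 spots, 3 well above background). The bound was taken against the lowest signal of a detected miRNA on the oe-NC-labelled array or its own signal there, whichever was higher. Its own signal was higher than that lowest signal of 0.98. The bound, 1.05-fold higher on the oe-HOTTIP-labelled array after scaling, was therefore the plain ratio of its 2 signals. It leaves out the spread over spots and gives no minimum increase. In 7 of the 13 alternatives that detected it on this array alone no bound was left, and without scaling the bound was 1.65-fold. Of its 3 probes 1 carried the signal, with 6.32 ± 4.30 on the oe-NC-labelled array and 11.46 ± 3.65 on the oe-HOTTIP-labelled array (SD, 6 spots each), and the other probes stayed between -0.39 and 1.54 on both arrays. The spots of the brightest probe ran from -0.48 to 12.8 and from 7.58 to 16.7, so the arrays overlapped. hsa-miR-18a-5p, which differs from it by A20U, gave 7.03 ± 3.88 and 12.5 ± 3.27 (SD, 10 spots each) with its brighter probe. The scaled log2 differences of these brightest probes were 0.21 for hsa-miR-18b-5p and 0.18 for hsa-miR-18a-5p, and the signal of one RNA on the probe of the other cannot be told apart in these data.

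The remaining members had no spot well above background on either array. hsa-miR-106b-3p, the passenger arm of MIR106B, read -1.89 ± 1.57 and -0.89 ± 2.26 on the oe-NC-labelled and oe-HOTTIP-labelled arrays (SD, 20 spots each). hsa-miR-93-3p read -1.29 ± 1.79 (SD, 20 spots) and -1.61 ± 1.53 (SD, 18 spots). hsa-miR-25-5p, the passenger arm of MIR25, read -0.48 ± 2.25 and -1.20 ± 1.98 (SD, 20 spots each). These values lay near the median of the undetected miRNAs, which was -0.75 on the oe-NC-labelled array and -0.53 on the oe-HOTTIP-labelled array. hsa-miR-363-3p, the guide arm of the last hairpin of the miR-106a-363 cluster, read 1.40 ± 1.69 and 0.55 ± 1.92 (SD, 20 spots each), below the mean of the negative control spots on both arrays. No fold was taken for these members, and at this signal over background a lower level on one array could not have been seen.

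Among the 6 arms of the miR-106a-363 cluster outside the listed members (hsa-miR-106a-3p, hsa-miR-18b-3p, hsa-miR-20b-3p, hsa-miR-363-5p, hsa-miR-19b-2-5p and hsa-miR-92a-2-5p), 1 was detected. This was hsa-miR-18b-3p, the other arm of the hairpin of hsa-miR-18b-5p, and it was detected on the oe-NC-labelled array alone. The hairpin, at chrX:134170041-134170111 on the minus strand, is shown with both mature arms in capitals, the 5p arm first, since each arm was detected on 1 array and not on the same one:
MIR18B: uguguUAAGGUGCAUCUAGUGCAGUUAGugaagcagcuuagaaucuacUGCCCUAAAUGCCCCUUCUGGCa
hsa-miR-18b-3p read 7.94 ± 2.91 (SD, 20 spots, 2 well above background) on the oe-NC-labelled array and 0.77 ± 1.96 (SD, 20 spots, 0 well above background) on the oe-HOTTIP-labelled array. The 95th percentile of the negative control spots was 7.69 and 7.28 on these arrays. The 4 probes of hsa-miR-18b-3p read 9.05, 7.95, 6.72 and 8.03 on the oe-NC-labelled array and 1.096, 1.17, 1.55 and -0.73 on the oe-HOTTIP-labelled array. All 4 were thus higher on the oe-NC-labelled array, with or without scaling, and for 3 of them no scaled spot of one array overlapped a spot of the other. The signal was at least 5.13-fold lower on the oe-HOTTIP-labelled array after scaling, taking the lowest signal of a detected miRNA as the floor. With the floor set at the signal where 50% of miRNAs were detected, 6.44 on that array, the bound was 1.94-fold and no longer past 2-fold. For hsa-miR-18b-5p the bound was only 1.05-fold, so the opposite detection of the arms rests on signals near the negative control spots. The other 5 arms were detected on neither array, with values from -1.79 to 2.24.

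**Figure D2:**
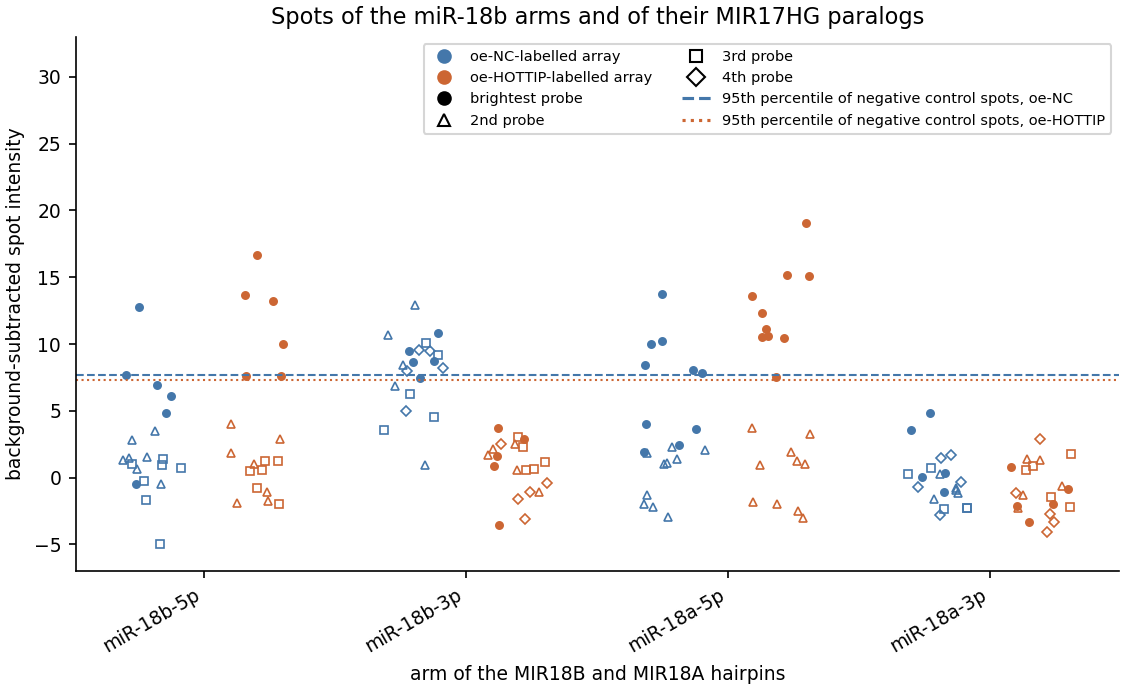
Background-subtracted intensity (y axis) of every spot used for both arms of the MIR18B hairpin and of its MIR17HG paralog MIR18A, on the oe-NC-labelled array (blue) and the oe-HOTTIP-labelled array (orange). Symbols mark the probes and horizontal lines the 95th percentile of the negative control spots. The 4 probes of hsa-miR-18b-3p read 6.72 to 9.05 on the oe-NC-labelled array and -0.73 to 1.55 on the other, and of the 5p arms, hsa-miR-18b-5p and hsa-miR-18a-5p, the brightest probe alone rises to the lines.

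The MIR17HG cluster was then set beside its paralogs. Of its 12 products, 6 were detected on both arrays, and the 6 others, passenger arms like hsa-miR-17-3p, on neither. The 6 detected products had a median scaled log2 difference of 0.26, with 0 at least 2-fold higher and 1 at least 2-fold lower on the oe-HOTTIP-labelled array. hsa-miR-17-5p read 46.2 ± 11.2 and 90.9 ± 18.99 on the oe-NC-labelled and oe-HOTTIP-labelled arrays (SD, 20 spots each), a scaled log2 difference of 0.33 with a spread over spots of 0.46. hsa-miR-20a-5p read 137.8 ± 24.9 and 235.1 ± 37.7 (SD, 20 spots each), a scaled log2 difference of 0.12 with a spread of 0.35. The 5 detected miRNAs with the seed AAAGUGC (these together with hsa-miR-106b-5p, hsa-miR-93-5p and hsa-miR-20b-5p) lay between -0.16 and 0.33, each within the spread of its single spots. The differences of hsa-miR-17-5p, hsa-miR-20a-5p and hsa-miR-106b-5p were larger than their standard errors over spots (0.10, 0.078 and 0.066). The brightest probe of hsa-miR-17-5p gave 0.39 with a spread of 0.32, and its other probes -0.06 and -0.13.

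The second seed family was less uniform. hsa-miR-92a-3p read 83.5 ± 7.03 (SD, 17 spots) on the oe-NC-labelled array and 45.8 ± 7.65 (SD, 20 spots) on the oe-HOTTIP-labelled array, a scaled log2 difference of -1.52 with a spread over spots of 0.27. Both of its probes were lower on the oe-HOTTIP-labelled array, from 133.3 to 74.9 and from 33.7 to 16.6, and for neither did the scaled spots of the arrays overlap. hsa-miR-25-3p, with the same seed and a difference of 4 bases, had a scaled log2 difference of -0.17. Its spread over spots of 0.34 leaves these values apart, but with 1 array per group the difference between them was not tested. With the median over all spots, 1 of the processing alternatives given below, hsa-miR-25-3p was at -0.72. No value of hsa-miR-92a-3p under these alternatives is reported here. hsa-miR-92a-3p is made from MIR92A1 of the MIR17HG cluster and from MIR92A2 of the miR-106a-363 cluster, which encode the same mature sequence, and the array cannot tell these sources apart. The same holds for hsa-miR-19b-3p, made from MIR19B1 and MIR19B2. It read 78.8 ± 29.0 and 157.1 ± 26.7 (SD, 20 spots each), a scaled log2 difference of 0.35 with a spread of 0.59.

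**Figure D3:**
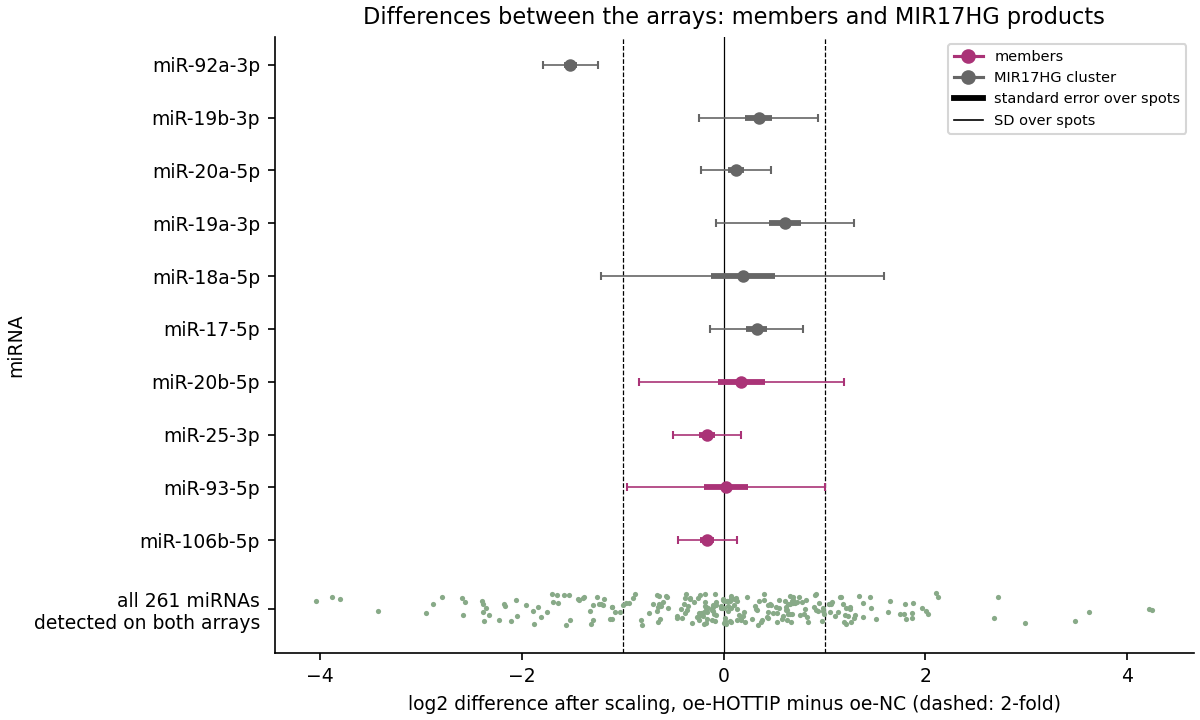
Log2 difference after scaling, the oe-HOTTIP-labelled array minus the oe-NC-labelled array (x axis), for the 4 members (purple) and the 6 MIR17HG products (grey) detected on both arrays, with the standard error (thick) and SD (thin) over spots, and for all 261 miRNAs detected on both arrays (green). Dashed lines mark 2-fold. The members lie between -0.17 and 0.18, near the centre of the 261 miRNAs, and only hsa-miR-92a-3p, at -1.52, lies past a 2-fold line.

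Of the markers used to check the source of the RNA, 4 of 5 squamous epithelial miRNAs were detected on both arrays, and hsa-miR-203a-3p was detected on neither. Their scaled log2 differences had a median of -0.52, with 3 below 0 (hsa-miR-200c-3p at -0.64, hsa-miR-31-5p at -0.62 and hsa-miR-205-5p at -0.41) and 1 above (hsa-miR-141-3p at 0.17). Red cell and serum miRNAs were detected too, 3 of 4, with scaled log2 differences from -1.75 (hsa-miR-486-5p) to -0.33. The brightest of them, hsa-miR-451a, read 2233.3 on the oe-NC-labelled array and 2551.7 on the oe-HOTTIP-labelled array. The brightest squamous marker, hsa-miR-205-5p, read 415.1 and 489.9 on these arrays, and the brightest member, hsa-miR-106b-5p, 132.6 and 185.7. The red cell miRNAs hsa-miR-144-3p and hsa-miR-486-5p read below hsa-miR-205-5p and hsa-miR-106b-5p on each array. Of 5 leukocyte and platelet miRNAs 2 were detected on both arrays, at 0.69 (hsa-miR-223-3p) and 1.38 (hsa-miR-150-5p), and the liver miRNA hsa-miR-122-5p was detected on both with a scaled log2 difference of 0.06. Members of the miR-106b-25 cluster are also abundant in blood cells, and the part of RNA from blood or serum in their values was not tested.

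The members' differences moved with the processing by more than their own size. Across the processing alternatives, hsa-miR-106b-5p ranged from -0.58 to 0.49 on the log2 scale, hsa-miR-25-3p from -0.72 to 0.48, hsa-miR-93-5p from -1.16 to 0.67 and hsa-miR-20b-5p from -0.48 to 0.83, with the direction given by the arrays' titles. All 4 highest values were those without scaling, where the median of all 261 miRNAs was itself at 0.67. hsa-miR-106b-5p and hsa-miR-25-3p also turned above 0, both to 0.32, where over 50% of spots had to be well above background. In the authors' normalized table with its columns as named, the differences were 0.15, 0.39, 0.40 and 0.45 in the same order, and with the columns exchanged the same values were negative.

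**Figure D4:**
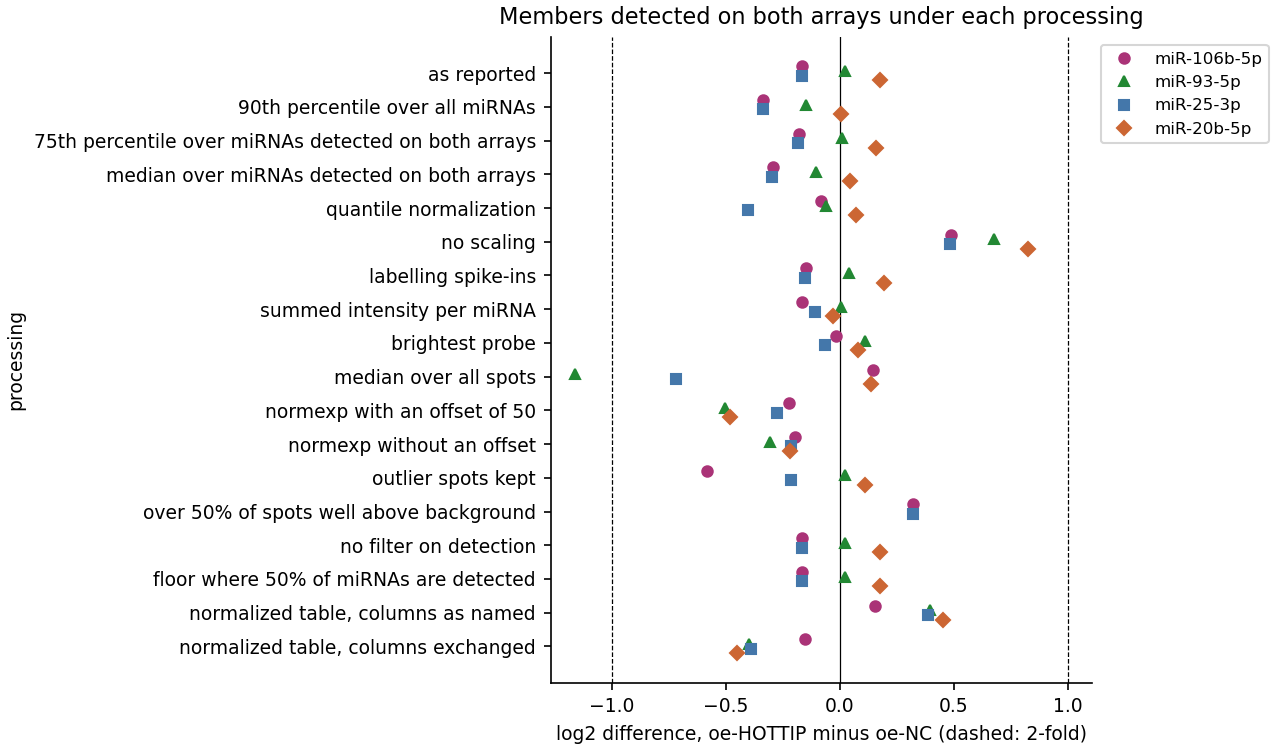
Log2 difference between the oe-HOTTIP-labelled array and the oe-NC-labelled array (x axis) for the 4 members detected on both arrays, as reported and under each processing alternative (y axis, settings in words). Each symbol is 1 member, and the dashed lines mark 2-fold. Members change sign between settings, and 1 value, hsa-miR-93-5p at -1.16 with the median over all spots, lies past a 2-fold line.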

How the data were processed

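Exosome RNA was read on 2 one-colour Agilent miRNA arrays, 1 per group. The authors deposited scanner output holding background-subtracted spot intensity, not scaled between arrays, with flags for outliers and detection. Agilent Feature Extraction was named as 10.10 in the submitters' processing notes and as 11.5.1.1 in the file headers. The authors also deposited a table of log2 normalized values, for which the methods name GeneSpring and the 90th percentile; its columns have medians of 2.27 (oe-NC) and 2.81 (oe-HOTTIP) above the floor, hold the same values at each rank above it, and run opposite to the scanner files as named. What was done beyond the 90th percentile is unknown, and the table served as an alternative.

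Control and outlier spots were left out (1630 and 1609 outlier spots; no miRNA spot was saturated). Spots were averaged per probe, then probes per miRNA, and the intensities of an array were divided by the 90th percentile of the miRNAs detected on both. Of each difference the spread and standard error come from relative SDs over spots pooled within probes. A miRNA detected on 1 array received a lower bound. Calls used 2-fold, the threshold of the methods; no test was possible with 1 array per group, so the precision is limited by how few arrays there were. Python 3.11.15, numpy 2.4.6, pandas 2.3.3, R 4.3.3 and limma 3.58.1 (normexp) were used, and scripts were tested on simulated data. Mature sequences came from RefSeq and matched 2248 of 2549 array miRNAs by name. The members, lists and alternatives were chosen with earlier results of these data known. Named miRNAs are the members, the other arms of the miR-106a-363 cluster, the MIR17HG products, seed relatives and markers. Also named are candidate targets of the study and the 3 miRNAs whose difference is nearest to the members' median.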

Additional observations from a re-analysis of the deposited data

How the results depend on the processing

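In 17 alternatives (6 scalings, 3 spot summaries, 2 background corrections, kept outliers, 2 detection rules, a higher floor and the normalized table read both ways), the 4 members detected on both arrays had 66 log2 differences, of which 56 lay within the spread over spots of the reported value and 10 beyond it. The sign turned in 18 of the 66, all of values under 2-fold as reported. The median of the members detected on both arrays ran from -0.39 to 0.58, and no member was 2-fold higher under any alternative. With the median over all spots, 1 member was at least 2-fold lower, hsa-miR-93-5p at -1.16; that median falls between a probe with signal and one without. Keeping outlier spots moved hsa-miR-106b-5p to -0.58. Without scaling the median of all 261 miRNAs rose to 0.67, and other scalings put it between -0.15 and 0.04. Counts over the 457 miRNAs (155 higher, 115 lower) became 8 and 26 with normexp and an offset of 50, 53 and 84 without an offset, 223 and 63 without scaling, and 86 and 88 with the higher floor. Lower calls fell to 39 with over 50% of spots well above background. Under that rule hsa-miR-93-5p and hsa-miR-20b-5p received no value, and hsa-miR-106b-5p and hsa-miR-25-3p both turned to 0.32, beside a median of 0.48 over the 156 miRNAs left. No paired analysis was possible because a single array stands for either group.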

Other observations

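The seed relatives listed from outside the clusters were hsa-miR-519d-3p and hsa-miR-526b-3p with the seed AAAGUGC, and hsa-miR-32-5p and hsa-miR-367-3p with the seed AUUGCAC. They were detected on neither array. Their intensities ran from -0.92 to 1.68 over both arrays. Outside this list, hsa-miR-92b-3p also has the seed AUUGCAC and hsa-miR-4735-3p the seed AAGGUGC. Both were likewise detected on neither array, and their intensities are not part of this range. Of 7 array miRNAs with the seed AAAGUGC 5 were detected on both arrays, of 6 with AUUGCAC 2, and of 3 with AAGGUGC 1. The seeds of the passenger arms hsa-miR-106b-3p, hsa-miR-93-3p and hsa-miR-25-5p were each found in no other array miRNA with a RefSeq sequence.

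The miRNAs outside these lists whose scaled log2 difference lay nearest to the members' median of -0.07, over 2 arrays, were hsa-miR-29b-3p at -0.07, hsa-miR-671-5p at -0.08 and hsa-miR-27b-3p at -0.08. The spike-ins added for labelling, dmr_285 and dmr_31a, read brighter on the oe-HOTTIP-labelled array by 0.80 and 0.47 on the log2 scale before scaling.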
